A study of Mus musculus with 6 samples.

Results

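The genes described here are 10 genes of prostaglandin and prostacyclin synthesis, sensing and breakdown, followed in liver endothelial cells (ECs) of young and aged mice. They were taken by name from a list built around the prostacyclin synthase gene Ptgis, and Ptgis was selected on its difference in expression between the ages. Every difference between young and aged cells in these 10 genes is therefore given as a description, with no p-value. They are Pla2g4a, Ptgs1, Ptgs2, Ptgis, Tbxas1, Ptges, Ptgds, Ptgir, Ptger4 and Hpgd, 10 of the 24421 genes in the count table. All 10 were listed, and 9 passed the filter on low counts, Ptgds being the exception.

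The study compared RNA from FACS-sorted CD31+CD45- liver ECs of female wild-type C57BL/6J mice at 10 weeks of age (young, 3 samples) with cells sorted the same way from mice aged 127, 131 and 136 weeks (aged, 1 sample at each of these ages, 3 in all). The mice carried no transgene and received no treatment, and mice with visible lesions had been left out. Whether a sample came from 1 mouse or from several was not given in the sources used here. The aged samples are named by their age in weeks. In bulk RNA of sorted cells, fewer cells of a kind and less RNA per cell cannot be told apart.

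Prostanoids are lipid signals made on demand. A phospholipase frees arachidonic acid from membranes, a cyclooxygenase converts it to the unstable prostaglandin H2, and one of several terminal synthases turns that into prostacyclin, thromboxane or prostaglandin D, E or F. Prostacyclin made by vessel walls dilates vessels and restrains platelets, thromboxane from platelets and macrophages does the opposite, and prostaglandins act on receptors nearby until a transporter takes them up and a dehydrogenase inactivates them. The receptors for prostacyclin (Ptgir) and for prostaglandin E (Ptger4) raise cyclic AMP through the Gs protein.

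Levels are given in CPM, the deposited read count scaled to a common library size with TMM factors, and fold changes come from an edgeR fit to all 14612 genes that passed the filter. Total counts lay between 23001556 and 31651817, and 3 counts stood for 0.0947 to 0.135 CPM. The endothelial gene Pecam1, which encodes CD31, was at 1366 to 1635 CPM in all 6 samples, and Ptprc, which encodes CD45, was at 1.17 to 1.70 CPM in young samples and at 7.57, 1.28 and 25.6 CPM in the 127-, 131- and 136-week samples. Lars2 and Rn45s, symbols that collect ribosomal reads, took 0.96% to 1.29% of the counts in young replicate 3 and the 127-week sample (the ribosome-poor libraries) and 4.68% to 5.53% in the other 4 (the ribosome-rich libraries), so differences within each kind of library are given beside pooled ones.

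Ptgis, Ptgs2 and Pla2g4a were higher and Hpgd was lower in all 3 aged samples than in any young sample, by an 8.48-fold, 16.1-fold and 5.41-fold higher mean CPM and a 2.56-fold lower one. Ptgs1, the most abundant of the 10, overlapped between the ages. Among 14612 genes, 17.9% did not overlap between the ages, 9.62% being higher and 8.33% lower in aged samples, and of the 9 genes tested 3 were higher and 2 were lower. At an unadjusted p under 0.05 with a log2 fold change beyond 1, edgeR called 6.62% of all genes and 4 of the 9, DESeq2 called 3.22% by adjusted p and the same 4 (Ptgis, Ptgs2, Pla2g4a and Hpgd), and edgeR called 0 by adjusted p. Since the choice of the genes used this contrast, nothing is read from these counts.

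**Figure D1:**
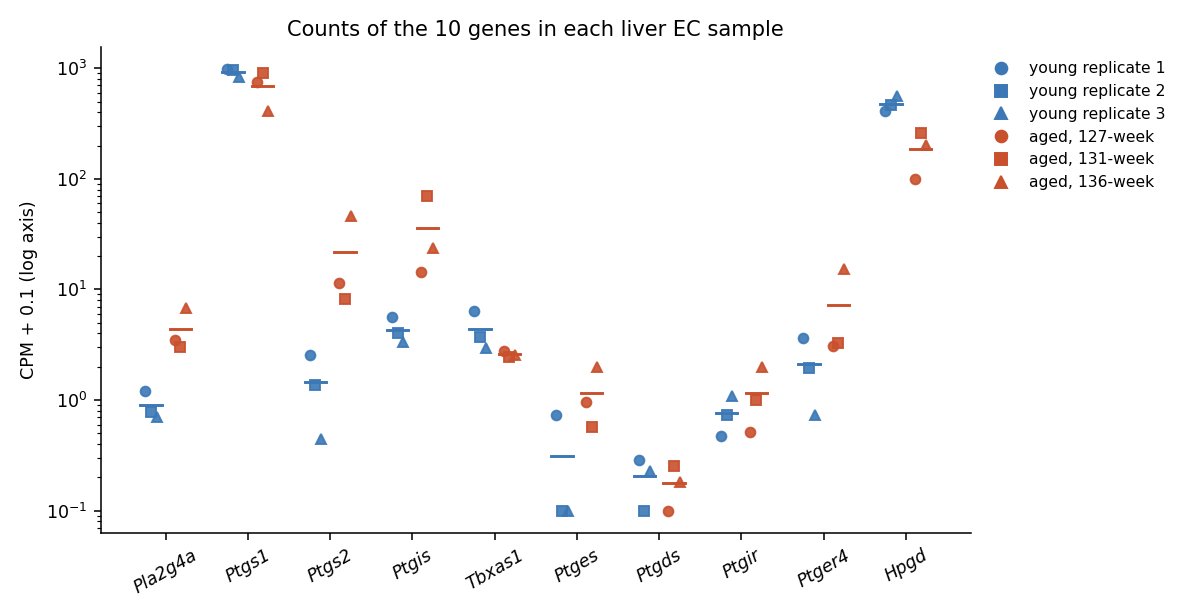
CPM plus 0.1 on a log axis for the 10 genes in each of the 3 young samples (blue) and the 3 aged samples (red), with horizontal lines at the mean of each age. Ptgs1 and Hpgd stand at 99.3 CPM or more in every sample, Ptgs2 spans 0.347 to 46.0 CPM, and Ptgds lies near the level of 3 counts throughout.

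The promoters of 3 genes are shown because these genes held the extremes of level and of difference described below: Ptgs1, the constitutive cyclooxygenase and the gene with the highest level, Ptgs2, its inducible relative with the largest difference between the ages, and Hpgd, the abundant dehydrogenase that was lower in aged cells. Each run gives 250 bases before and 30 bases after the RefSeq transcription start on the plus strand of GRCm38.p6, 5′ to 3′, with capitals marking matches to 6 motifs searched on both strands.
Ptgs1 promoter, chr2:36230176-36230455: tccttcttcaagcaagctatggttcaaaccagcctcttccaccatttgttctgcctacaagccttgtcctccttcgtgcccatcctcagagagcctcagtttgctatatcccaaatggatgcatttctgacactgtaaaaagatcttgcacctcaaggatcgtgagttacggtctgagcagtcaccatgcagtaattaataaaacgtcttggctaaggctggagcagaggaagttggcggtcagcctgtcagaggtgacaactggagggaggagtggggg
Ptgs2 promoter, chr1:150099781-150100060: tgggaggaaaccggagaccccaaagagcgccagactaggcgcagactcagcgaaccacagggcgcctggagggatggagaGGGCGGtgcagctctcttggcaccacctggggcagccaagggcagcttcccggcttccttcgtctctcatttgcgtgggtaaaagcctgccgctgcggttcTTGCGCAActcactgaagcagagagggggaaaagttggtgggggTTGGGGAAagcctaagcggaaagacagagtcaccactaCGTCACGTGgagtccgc
Hpgd promoter, chr8:56294302-56294581: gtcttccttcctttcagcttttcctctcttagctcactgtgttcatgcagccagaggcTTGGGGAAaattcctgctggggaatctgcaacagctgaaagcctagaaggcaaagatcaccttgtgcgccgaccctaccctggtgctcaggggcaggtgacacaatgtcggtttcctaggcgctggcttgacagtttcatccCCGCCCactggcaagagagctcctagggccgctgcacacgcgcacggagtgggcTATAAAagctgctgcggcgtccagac

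The letters searched for a TATA box were TATAAA, and those for a GC box were GGGCGG. The core of the cyclic AMP response element was written TGACG, and the E-box was written CACGTG. For the AP-1 element the search used TGANTCA, and for the C/EBP element it used TTNNGNAA. In the Ptgs2 window a GC box lay at -170, C/EBP letters lay at -69 and -25, and the cyclic AMP response core at +14 shared its last letters with an E-box at +17. In the Hpgd window C/EBP letters lay at -192, a GC box at -50 and TATAAA at +5. The Ptgs1 window held none of the 6. Among all 32851 RefSeq promoter windows of 300 bases, 13.6% held TATAAA, 35.7% the GC box, 20.8% the cyclic AMP response core, 7.15% the E-box, 7.81% the AP-1 letters and 40.7% the C/EBP letters. GC content was 50.7% for Ptgs1, 59.3% for Ptgs2 and 58.0% for Hpgd, beside a median of 52.7% over all windows. RefSeq promoters were found for 9 of the 10 genes, all but Ptgis. A match is a run of letters and says nothing on whether a factor was bound.

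Pla2g4a (chr1:151676748-151808420, minus strand, mm9) encodes the cytosolic phospholipase that starts the pathway by freeing arachidonic acid. Its level was 1.12, 0.677 and 0.600 CPM in young replicates 1 to 3 and 3.37, 2.92 and 6.66 CPM in the 127-, 131- and 136-week samples. Every aged sample stood above every young one, and the 136-week sample was the highest. The log2 fold change was 2.43 ± 0.49 (SE, 3 samples against 3), and it was 2.22 among the 4 ribosome-rich libraries and 2.31 between the 2 ribosome-poor ones. The gene stayed low per length, at a mean of 1.57 FPKM in aged cells.

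Ptgs1 (chr2:36085946-36107792, plus strand, mm9) was at 975, 967 and 830 CPM in young and 743, 900 and 413 CPM in the 127-, 131- and 136-week samples. The 131-week sample lay among the young ones, and the other two aged samples lay below them. In the fit its log2 fold change was -0.43 ± 0.29 (SE, 3 samples against 3), a difference within the spread between samples, and it was -0.67 among the ribosome-rich and -0.16 between the ribosome-poor libraries.

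Ptgs2 (chr1:151947254-151955140, plus strand, mm9) is the cyclooxygenase gene that inflammatory signals induce in many cells. Its level was 2.46, 1.26 and 0.347 CPM in young and 11.35, 8.17 and 46.0 CPM in the 127-, 131- and 136-week samples. All aged samples stood above all young ones, but the 3 young samples differed among themselves about as widely on a log scale as the aged ones. Its log2 fold change was 4.02 ± 0.90 (SE, 3 samples against 3), the largest of the 9 genes tested, and lay between 2.85 and 4.80 when any 1 sample was left out. Among the ribosome-rich libraries it was 3.39, and between the ribosome-poor ones 4.68.

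Per length, the Ptgs1 level exceeded that of Ptgs2 in 6 of 6 samples, at both ages. The deposited FPKM of Ptgs1 was 352, 349 and 305 in young and 271, 324 and 149 in the 127-, 131- and 136-week samples. That of Ptgs2 was 0.601, 0.298 and 0.0868 in young and 2.76, 1.98 and 11.1 in aged samples. The mean difference in level was 7.83 ± 2.53 in log2(FPKM + 0.1) (SD over 6 samples), or 228-fold. Its unadjusted p was 0.03125, the smallest that 6 samples allow (two-sided exact sign-flip permutation test). The adjusted p of 0.0417 in this test, over 8 pairs, used the pairs with Ptgis, a gene chosen on its difference between the ages. Passing a threshold by adjusted p is therefore not claimed for this pair. The share of Ptgs2 in the summed cyclooxygenase FPKM was 0.170%, 0.0854% and 0.0284% in young and 1.01%, 0.608% and 6.98% in the 127-, 131- and 136-week samples. Ptgs1 thus held most of the cyclooxygenase FPKM in every sample.

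Ptgis (chr2:167017305-167066104, minus strand, mm9), the prostacyclin synthase gene, was at 5.51, 3.93 and 3.25 CPM in young and at 14.2, 69.9 and 23.6 CPM in the 127-, 131- and 136-week samples. The young samples lay close together, all aged samples lay above them, and the 131-week sample was the highest. The mean was 4.23 ± 1.16 CPM (SD, n = 3) in young and 35.9 ± 29.8 CPM (SD, n = 3) in aged samples. Its log2 fold change was 3.08 ± 0.60 (SE, 3 samples against 3). It was 2.16 without the 131-week sample, which carried the largest part of the mean. Among the ribosome-rich libraries it was 3.10, and between the ribosome-poor ones 2.09. The exons of Ptgis share 156 of 2567 bases with 1110018N20Rik on the opposite strand, and whether counting used the strand was not given in the sources used here.

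Tbxas1 (chr6:38825403-39034584, plus strand, mm9) encodes thromboxane synthase, which competes with Ptgis for the same substrate. It was at 6.25, 3.61 and 2.87 CPM in young and 2.68, 2.33 and 2.48 CPM in the 127-, 131- and 136-week samples. The aged samples were all below the young ones by this measure (2.68 CPM at most against 2.87 CPM at least), but the ages overlapped in FPKM and when CPM was scaled by total counts alone. The log2 fold change was -0.76 ± 0.38 (SE, 3 samples against 3) and was -0.95 among the ribosome-rich and -0.095 between the ribosome-poor libraries.

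Ptges and Ptgds, which encode an inducible prostaglandin E synthase and a prostaglandin D synthase, were near the limit of detection. Ptges (chr2:30744991-30785383, minus strand, mm9) had 17, 0 and 0 counts in young and 25, 12 and 46 counts in the 127-, 131- and 136-week samples. The ages overlapped, and its log2 fold change of 2.30 ± 1.46 (SE, 3 samples against 3) depended on young replicate 1, the only young sample with any count. Ptgds (chr2:25322229-25325566, minus strand, mm9) had 5, 0 and 4 counts in young and 0, 4 and 2 counts in aged samples, about the 3 counts that a count of 0 allows, so a difference was not detectable at this depth.

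Among the 4 terminal synthase genes, Ptgis and Tbxas1 had the higher levels. In young cells the Ptgis level was 2.62 ± 0.66 FPKM and that of Tbxas1 2.08 ± 1.10 FPKM (SD, n = 3 each), and their ranges overlapped. In aged cells the levels were 22.2 ± 18.4 and 1.26 ± 0.11 FPKM (SD, n = 3 each). The ratio of Ptgis to Tbxas1 was therefore 1.00, 1.56 and 1.54 in young and 6.46, 37.9 and 11.4 in the 127-, 131- and 136-week samples.

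Of the summed FPKM of these 4 genes, Ptgis held 46.7%, 60.9% and 57.1% in young and 84.6%, 96.6% and 88.3% in the 127-, 131- and 136-week samples. Tbxas1 was above Ptges in 6 of 6 samples (mean difference in log2(FPKM + 0.1) 2.89 ± 1.15, SD). It was above Ptgds in 6 of 6 as well (2.94 ± 0.90). Each had an unadjusted p of 0.03125, the smallest that 6 samples allow (two-sided exact sign-flip permutation test). Their adjusted p of 0.0417 over 8 pairs used the pairs with Ptgis, so passing 0.05 is not claimed. No p is given for the 3 pairs with Ptgis, since they draw on the aged values for which it was chosen, and in young replicate 1 Ptgis and Tbxas1 were at 3.35 and 3.34 FPKM. The Ptges and Ptgds levels differed by 0.05 ± 1.32 in log2(FPKM + 0.1) (SD over 6 samples), with an adjusted p of 0.938 in the same exact permutation test.

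**Figure D2:**
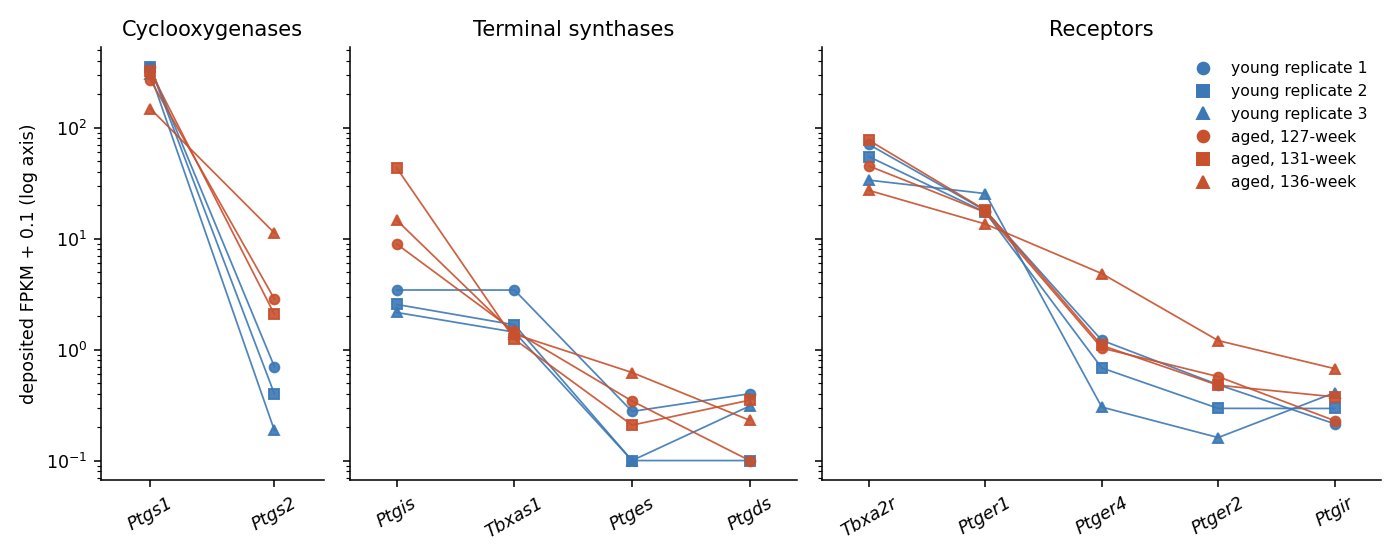
Deposited FPKM plus 0.1 on a log axis for cyclooxygenases, terminal synthases and prostanoid receptors, 1 line for each of 3 young (blue) and 3 aged (red) samples. Ptgs1 lies above Ptgs2 in all 6 samples, Ptgis separates from Tbxas1 in the aged samples, and the thromboxane receptor gene Tbxa2r lies above the prostacyclin receptor gene Ptgir in all 6.

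Ptgir (chr7:17491839-17496254, plus strand, mm9), the receptor for prostacyclin, was at 0.372, 0.632 and 0.978 CPM in young and 0.413, 0.895 and 1.87 CPM in the 127-, 131- and 136-week samples. The ages overlapped, with the 136-week sample alone above the young range. The log2 fold change was 0.67 ± 0.72 (SE, 3 samples against 3), it was -0.023 without the 136-week sample, and it was 1.25 among the ribosome-rich and -1.07 between the ribosome-poor libraries. No direction is given for this gene.

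Ptger4 (chr15:5156661-5194187, minus strand, mm9), a prostaglandin E receptor, was at 3.57, 1.85 and 0.631 CPM in young and 2.96, 3.15 and 15.2 CPM in the 127-, 131- and 136-week samples. The 127- and 131-week samples lay within the young range and the 136-week sample stood above it. The log2 fold change was 1.82 ± 0.84 (SE, 3 samples against 3) and was 0.60 without the 136-week sample. Exons of Ptger4 share 1015 of 6648 bases with Gm15937 and 82 with Ttc33, both on the opposite strand. The Ptger4 level was above that of Ptgir in 5 of 6 samples, by 1.64 ± 1.18 in log2(FPKM + 0.1) (SD), with an adjusted p of 0.0714 (two-sided exact sign-flip permutation test), which did not pass 0.05.

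Hpgd (chr8:58773349-58799843, plus strand, mm9) encodes the dehydrogenase that carries out the first step of prostaglandin inactivation. It was at 413, 466 and 558 CPM in young and 99.3, 258 and 204 CPM in the 127-, 131- and 136-week samples. Every aged sample lay below every young one, and the 127-week sample was the lowest. The mean was 479 ± 73.6 CPM in young and 187 ± 80.5 CPM in aged samples (SD, n = 3 each). For Hpgd the log2 fold change was -1.36 ± 0.34 (SE, 3 samples against 3), and it was -0.94 among the ribosome-rich and -2.49 between the ribosome-poor libraries.

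Ptgs1 and Hpgd, a gene that makes and a gene that removes prostaglandins, were the most abundant of the 10 at both ages. In FPKM, Ptgs1 was at 336 ± 26.1 and Hpgd at 307 ± 51.2 in young, and at 248 ± 90.0 and 119 ± 50.6 in aged cells (SD, n = 3 each). Their ranges overlapped at both ages, and both lay apart from the third gene, Ptgis. Among the 14612 genes tested, Ptgs1 was at the 98.4th percentile of mean FPKM in young and the 97.7th in aged cells, and Hpgd at the 98.1st and 94.9th. The ratio of Ptgs1 to Hpgd FPKM was 1.34, 1.18 and 0.841 in young and 4.25, 1.99 and 1.15 in the 127-, 131- and 136-week samples. The 136-week sample, where Ptgs1 was lowest, lay among the young samples in this ratio.

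Below these, the order of mean FPKM in young cells was Ptgis, Tbxas1, Ptger4, Ptgs2, Pla2g4a, Ptgir, Ptgds and Ptges. Of these neighbours, the ranges over 3 samples were apart for Tbxas1 and Ptger4 alone. In aged cells the order was Ptgis, Ptgs2, Ptger4, Pla2g4a, Tbxas1, Ptgir, Ptges and Ptgds, and the ranges were apart for Tbxas1 and Ptgir alone. Ptgis went from the 34.6th to the 75.2nd percentile of the genes tested and Ptgs2 from the 13.9th to the 45.4th.

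**Figure D3:**
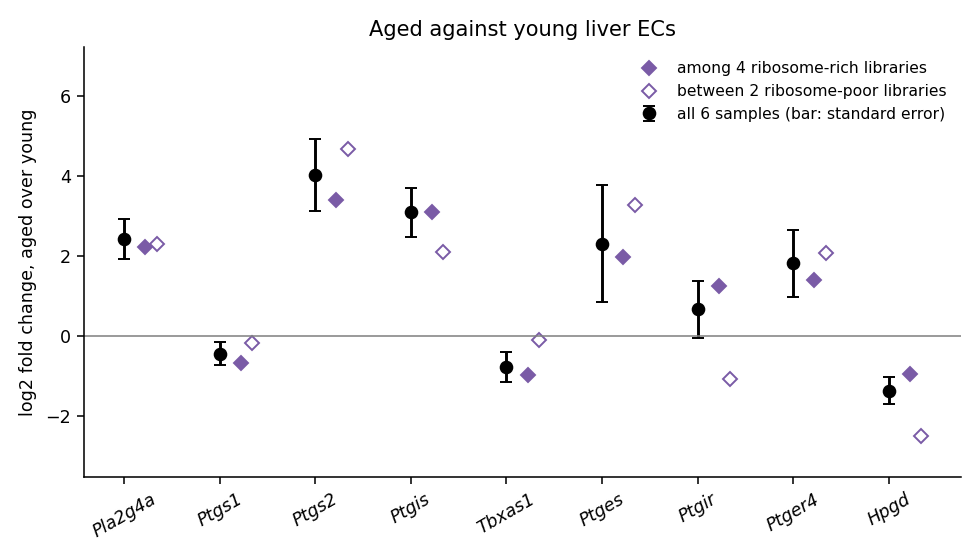
Log2 fold change of aged over young cells for the 9 genes tested (black, bars are standard errors of the edgeR fit), with the difference in log2 CPM among the 4 ribosome-rich libraries (filled diamonds) and between the 2 ribosome-poor ones (open diamonds). Pla2g4a, Ptgs2 and Ptgis are at 2.09 or more in all 3 estimates, Hpgd is below 0 in all 3, and Ptgir lies on both sides of 0.

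Markers of EC type and of other cells also differed between the samples. The summed level of 10 sinusoidal EC markers was 20280 to 21540 CPM in young and 7876, 13870 and 8022 CPM in the 127-, 131- and 136-week samples. Of the 10, 9 were lower in aged cells, 7 of them without overlap, beside 8.33% of all genes lower without overlap. Among the aged samples Hpgd had the same order as this sum, the 131-week sample being highest and the 127-week sample lowest. Divided by the sum of these markers and multiplied by 1000, a ratio chosen after the values were seen, the Hpgd level was 20.4, 21.6 and 26.4 in young and 12.6, 18.6 and 25.4 in the 127-, 131- and 136-week samples. The ages overlapped in this ratio. The part of sinusoidal cells in the Hpgd difference was not tested.

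The summed level of 10 pan-leukocyte markers was 116 to 118 CPM in young and 132, 112.5 and 385 CPM in the 127-, 131- and 136-week samples, and that of 10 macrophage markers was 60.5 to 104 CPM in young and 221, 66.6 and 544 CPM in aged ones. Of the leukocyte markers 9 of 10 were higher in aged cells and 1 did not overlap, and of the macrophage markers 8 of 10 were higher and 1 did not overlap. Among all genes 9.62% were higher without overlap. The median log2 fold changes of the 2 lists were 2.00 and 1.14, so the sums, which weigh abundant markers most, need not follow the typical marker. Ptgs2, Pla2g4a, Ptger4, Ptgir and Ptges were all highest in the 136-week sample, where both sums were highest. In the 131-week sample, where the leukocyte sum was below all young samples and the macrophage sum within their range, Ptgis, Ptgs2 and Pla2g4a were at 69.9, 8.17 and 2.92 CPM, above all young samples. Ptger4 and Ptgir were within the young range there. The leukocyte sum of that sample lay only just under the young range (112.5 against 116 CPM), and the part of leukocytes and macrophages in these differences was not tested.

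The remaining marker lists gave these values beside Ptgis and Tbxas1. Of 10 arterial and large vessel EC markers, 9 were higher in aged cells and 4 did not overlap, beside 9.62% of all genes higher without overlap. Their summed level was 3020 to 4726 CPM in young and 3527 to 4755 CPM in aged samples. Stellate, mural and fibroblast markers, which belong to cells that the CD31+CD45- sort is meant to remove, summed to 159 to 549 CPM in young and 473, 251 and 770 CPM in the 127-, 131- and 136-week samples, so that the sample with the most Ptgis lay within the young range. Mesothelial markers were lower in aged samples (3.97 to 7.48 against 0.310 to 2.44 CPM), with Wt1 at 0 counts in all 3.

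Platelet markers, which belong to cells that use Tbxas1, summed to 73.4 to 194 CPM in young and 82.5 to 107 CPM in aged samples. Mast cell markers stayed at or below 4.51 CPM, with Tpsab1 at 0 counts in all 6 samples. Cholangiocyte markers summed to 90.5 to 107 CPM in young and 195 to 254 CPM in aged samples. All 7 were higher, 3 of them without overlap. Hepatocyte markers summed to 248 to 333 and 189 to 310 CPM. These sums overlapped, but 8 of the 9 hepatocyte markers tested were lower in aged samples, 4 of them without overlap. Among all genes 9.62% were higher and 8.33% lower without overlap. Central vein EC markers summed to 3589 to 3891 CPM in young and 2033 to 3401 CPM in aged samples, with 4 of 6 lower, 2 without overlap. Pan-endothelial markers summed to 15160 to 16470 and 10900 to 13930 CPM. Of these 10 pan-endothelial markers, 7 were lower in aged samples, 4 without overlap, and 3 were higher, so the even level of Pecam1 did not hold for the list. The part of these cells in the values of Ptgis and Tbxas1 was not tested.

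**Figure D4:**
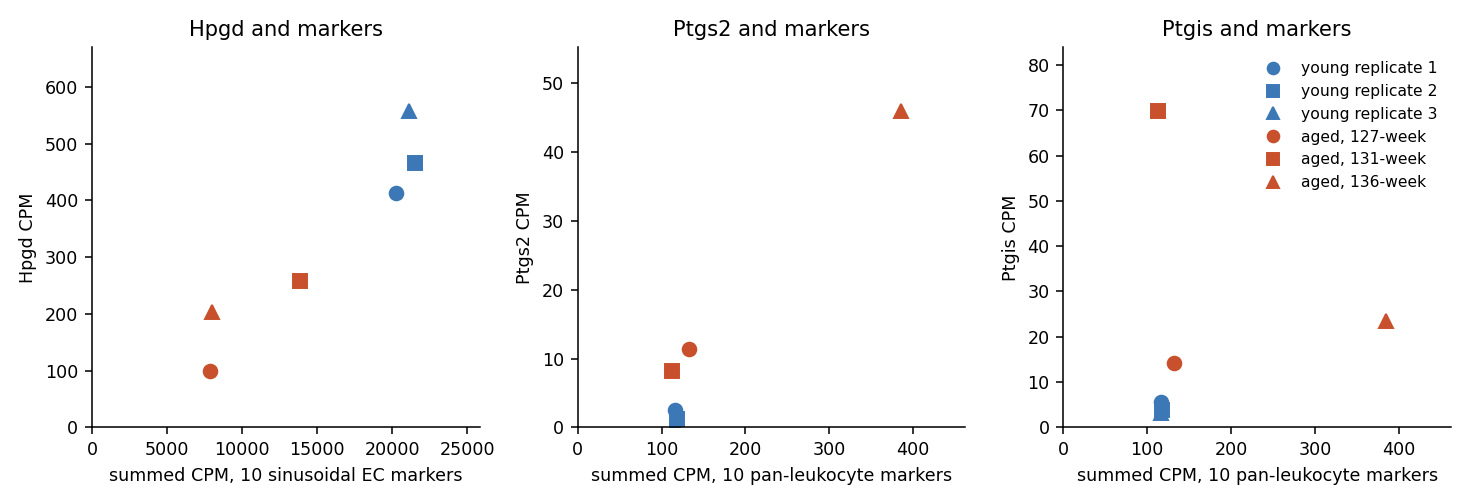
Hpgd CPM against the summed CPM of 10 sinusoidal EC markers, and Ptgs2 and Ptgis CPM against the summed CPM of 10 pan-leukocyte markers, 1 point for each of the 6 samples. The 136-week sample has the highest Ptgs2 (46.0 CPM) and the highest leukocyte sum (385 CPM), while the 131-week sample has the highest Ptgis (69.9 CPM) at the lowest leukocyte sum (112.5 CPM).

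The other genes of the pathway were taken from 6 lists with 83 symbols, of which 82 were in the count table and 67 passed the filter. With the quasi-likelihood test of edgeR, no gene of the 67 passed an adjusted p of 0.05 with a log2 fold change beyond 1, and none of all 14612 did (0.0%). At an unadjusted p under 0.05 and the same fold, 7 of the 67 were higher and 2 lower, beside 5.43% higher and 1.19% lower of all genes. DESeq2 called 3 higher and 1 lower by adjusted p, beside 2.68% and 0.541% of all genes. Without overlap between the ages, 8 of the 67 were higher and 5 lower, beside 9.62% and 8.33% of all genes. The median log2 fold change was 0.23 over the 67 genes and 0.0098 over all genes tested.

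Of 12 other phospholipases A2 tested, 9 were higher and 3 lower, none past the adjusted threshold, with a median log2 fold change of 0.33. The most abundant were Pla2g12a (secreted), Pla2g16 (of fat tissue) and Pla2g15 (lysosomal), at mean levels of 25.8, 13.3 and 8.45 FPKM over the 6 samples. Of these, Pla2g16 and Pla2g15 were higher in aged samples without overlap. Their log2 fold changes were 0.64 ± 0.26 and 0.41 ± 0.19 (SE), with adjusted p of 0.384 and 0.436 in edgeR's quasi-likelihood test. Pla2g7, which cleaves platelet-activating factor, was at 4.69, 6.00 and 8.71 CPM in young and 9.73, 11.75 and 17.4 CPM in aged samples, without overlap. Its log2 fold change was 1.00 ± 0.32 (SE) with an adjusted p of 0.310 in edgeR's quasi-likelihood test. Pla2g3, at no more than 1.04 CPM, was lower in aged samples without overlap (log2 fold change -2.18 ± 1.07, SE, adjusted p = 0.460 in the same edgeR test). Pla2g1b had 179 counts in young replicate 1, 2 in the 136-week sample and 0 in the other 4 and is outside the rule for named genes.

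Of 5 other terminal synthases tested, the log2 fold changes lay between 0.026 and 1.12 with a median of 0.17, with none past the adjusted threshold and none without overlap. Ptges3, a cytosolic prostaglandin E synthase that is also a chaperone partner, Cbr1, a carbonyl reductase, and Fam213b, a prostaglandin F synthase, were the most abundant. Their mean levels over the 6 samples were 105.8, 32.01 and 14.7 FPKM, above the mean of 12.4 FPKM of Ptgis. Ptges3 was at 95.1 and 126 CPM in young replicate 3 and the 127-week sample, the ribosome-poor libraries, and at 225 to 245 CPM in the other 4.

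Of 5 other prostanoid receptors tested, 3 were higher and 2 lower, with none past the adjusted threshold and none without overlap. The receptors with the highest levels were Tbxa2r, for thromboxane, at a mean of 51.3 FPKM, and Ptger1, for prostaglandin E, at 18.2 FPKM. Tbxa2r was at 118, 91.0 and 54.7 CPM in young and 74.5, 129.5 and 45.4 CPM in aged samples, fully overlapping (log2 fold change -0.078 ± 0.41, SE, adjusted p = 0.966 in the edgeR test). The FPKM of Tbxa2r exceeded that of Ptgir 47.3-fold to 615-fold in the 6 samples. Ptger2, a Gs-coupled receptor for prostaglandin E, was at 0.786 ± 0.60 CPM in young and 2.41 ± 1.48 CPM in aged samples (SD, n = 3 each) and was highest, like Ptger4, in the 136-week sample.

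Of 5 genes of transport and breakdown besides Hpgd, 1 was higher and 4 lower. Slco2a1, the uptake transporter that brings prostaglandins to the dehydrogenase, was at 740, 897 and 586 CPM in young and 545, 797 and 774 CPM in aged samples, and the ages overlapped. Ptgr1, a prostaglandin reductase that acts after Hpgd, was at 4.58, 4.02 and 5.11 CPM in young and 1.75, 2.72 and 1.46 CPM in aged samples. Its ages did not overlap (log2 fold change -1.21 ± 0.36, SE, adjusted p = 0.277 in the edgeR test), and it was called by DESeq2. Ptgr2, a related reductase, overlapped between the ages at a mean of 11.6 FPKM. Abcc4, which exports prostaglandins and cyclic nucleotides, was lower without overlap at 84.1 to 121 CPM in aged against 133 to 158 CPM in young samples (log2 fold change -0.63 ± 0.19, SE, adjusted p = 0.277 in the edgeR test).

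Of 16 genes of the lipoxygenase and leukotriene branch tested, 12 were higher and 4 lower, with none past the adjusted threshold and a median log2 fold change of 0.73. Lta4h, Mgst3 and Ltc4s, enzymes of leukotriene synthesis, were the most abundant at means of 60.9, 52.3 and 33.6 FPKM. Ltc4s was at 27.7, 15.98 and 17.3 CPM in young and 1.89, 18.8 and 4.14 CPM in the 127-, 131- and 136-week samples, and the 131-week sample lay within the young range. Aloxe3, a lipoxygenase relative, had 0 counts in all young samples and 19, 1 and 6 counts in aged ones, so no fold is given.

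Downstream of the Gs-coupled receptors, 24 genes of cyclic AMP signalling were tested, of which 11 were higher and 13 lower, and the median log2 fold change was -0.055. Gnas, the Gs alpha subunit, and Prkar1a, a regulatory subunit of protein kinase A, were the most abundant at means of 710 and 251 FPKM and overlapped between the ages. Adcy7, an adenylyl cyclase abundant in blood cells, was at 1.90, 2.35 and 1.99 CPM in young and 29.1, 5.80 and 41.4 CPM in the 127-, 131- and 136-week samples. Its log2 fold change was 3.61 ± 0.67 (SE, adjusted p = 0.193 in edgeR's quasi-likelihood test), and it passed the adjusted threshold without the 131-week sample (log2 fold change 4.08) and by DESeq2. Its order in the aged samples was that of the leukocyte sum, and the part of leukocytes in its difference was not tested.

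Pde4b, a phosphodiesterase that degrades cyclic AMP, was at 139.5, 149 and 184 CPM in young and 290, 314 and 878 CPM in the 127-, 131- and 136-week samples. Prkar1b, another regulatory subunit of protein kinase A, was at 3.31, 3.30 and 1.58 CPM in young and 8.77, 4.75 and 11.8 CPM in aged samples. Neither gene overlapped between the ages, and both were called by DESeq2 but not by edgeR (log2 fold change 1.65 ± 0.44 and 1.63 ± 0.44, SE, adjusted p = 0.250 and 0.256 in the quasi-likelihood test). Pde4b had a log2 fold change of 0.94 without the 136-week sample and a difference in log2 CPM of 0.65 between the ribosome-poor libraries.

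**Figure D5:**
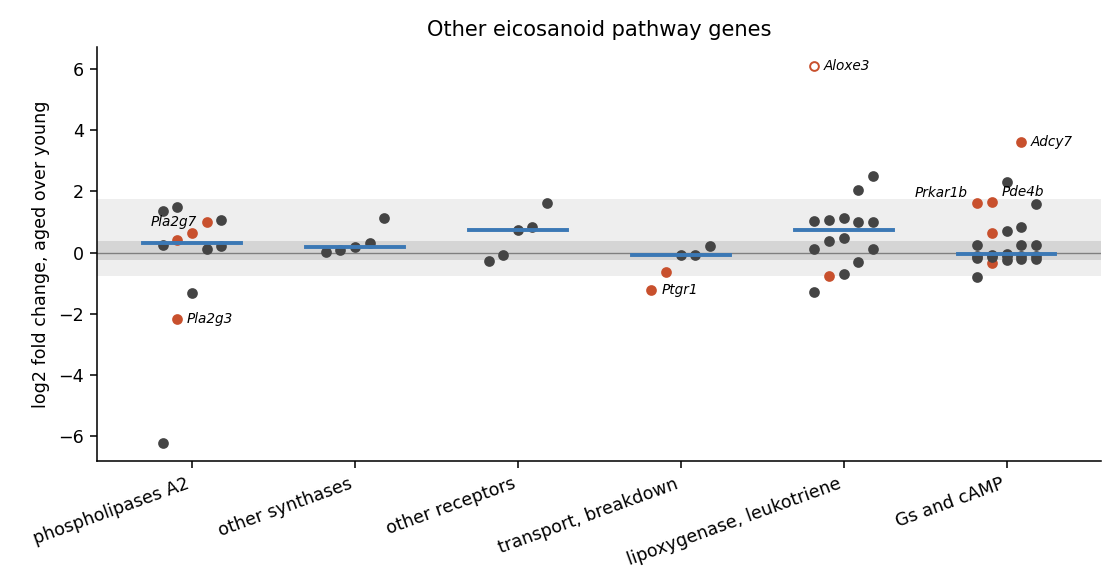
Log2 fold change of aged over young cells for the 67 other pathway genes tested, by list, with blue lines at list medians, red points for genes whose ages did not overlap in CPM and an open point for Aloxe3, which had 0 counts in all young samples. The light and dark grey bands hold the middle 90% and 50% of all 14612 genes, and Adcy7 at 3.61 and Ptgr1 at -1.21 lie outside the light band.

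The genes whose log2(CPM + 1) most resembled that of Ptgis over the 6 samples, among 12456 genes with a mean of at least 1 CPM, were Gstp2, Atp6v0e2, Cdkl3, Nabp1 and Mgst1, with Pearson r of 0.998, 0.984, 0.984, 0.982 and 0.982. Each was highest in the 131-week sample, Nabp1 for example at 12.1 to 16.4 CPM in young and 22.5, 50.9 and 28.5 CPM in the 127-, 131- and 136-week samples. For Hpgd they were Plin2, Add3, Pef1, Agpat5 and Crnkl1, with r from 0.979 to 0.991, each lowest in the 127-week sample. Agpat5 was at 208 to 270 CPM in young and 102, 157 and 131 CPM in aged samples. These correlations describe 6 libraries that fall into 2 ages, and with so many genes searched, high values arise from few points.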

How the data were processed

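RNA of sorted liver ECs from 3 young and 3 aged samples was sequenced as 75-base single-end reads. Per the submitters' notes and methods, the authors called bases with CASAVA 1.8.2, mapped reads to mm9 with TopHat2 2.1.0 and deposited a table of raw counts for 24421 symbols. The authors also deposited FPKM from Cuffnorm 2.2.1 for 24346 symbols. The counting program, its annotation and its strand setting were not given in the sources used here.

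From the counts, genes with at least 0.5 CPM in at least 1 sample (14612) were scaled by TMM and fitted with edgeR 4.0.16 (quasi-likelihood, R 4.3.3), with Benjamini-Hochberg adjustment over all of them and calls at 0.05 and a log2 fold change beyond 1. SE is the log2 fold change over the square root of F. Levels between genes were compared in log2(FPKM + 0.1) by a two-sided exact sign-flip test. DESeq2 1.42.0 and limma 3.58.1 on log2 FPKM were alternatives. The fits were tested in 3 runs on data simulated with known changes. Of 300 genes changed by a smaller fold and 300 by a larger one, edgeR called 199 and 262, with 31 false calls. DESeq2 called 240 and 276, with 121 false calls, so its calls are the less strictly controlled. Between counts of same-age samples, chi-square over its degrees of freedom was at least 20.2, so no library was a copy of another.

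The 10 genes and all lists were chosen with earlier results of these data known. Named genes are the 10, and of each other list every gene called, the 3 with the highest mean FPKM, and those with a log2 fold change beyond 1 without overlap, plus the 5 genes most like Ptgis and Hpgd. The floor of 3 counts covers counting error only, while SE and SD values also hold the spread between samples. Gene positions are from GENCODE vM1 (mm9), promoters from RefSeq (GRCm38.p6). The symbol Gpr44, a synonym of Ptgdr2, was not in the count table. Akr1b3 had 0 counts in all samples but a deposited FPKM of 4.91 to 10.3. The deposited counts and FPKM thus disagree for Akr1b3, and its 0 counts are not read as absence. The study's other assays were not used here.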

Additional observations from a re-analysis of the deposited data

How the results depend on the processing

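Genes called among all tested by edgeR (0 higher, 0 lower) became 392 higher and 79 lower with DESeq2, 3 and 1 when any gene with a count was tested, and 1 and 1 with a term for the library cluster. Leaving out 1 sample gave 0 to 1 higher, the 1 coming without the 131-week sample, and 0 lower. Among the other pathway genes DESeq2 called 3 higher and 1 lower, and leaving out 1 sample gave 0 to 1 higher. Without TMM factors, a choice made after seeing the data, 1722 genes were higher and 805 lower without overlap in place of 1405 and 1217 (68.1% against 53.6% higher), and Tbxas1 overlapped.

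Of the alternatives for the 9 genes tested, 125 values stayed within the spread of the fit, 8 moved and 2 reversed. Ptgir ranged from -0.023 (without the 136-week sample) to 1.07 (without young replicate 3) with 1 sample left out and was at -1.07 between the libraries poor in Lars2 and Rn45s counts. Ptgis was at 2.16 without the 131-week sample. On log2(FPKM + 1), which understates low genes, Ptgs2, Pla2g4a and Ptges were at 1.97, 0.96 and 0.28, and without young replicate 1 Ptges had no young count left. The difference of Ptges over Ptgds was -0.72 in young samples alone and -0.30 to 0.39 with 1 sample left out. The causes were not tested. No paired analysis was possible because young and aged samples were independent and the design held no pairs. Depth limits statements on Ptgds, Ptges and Ptgir.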
